A study of Mus musculus with 9 samples.

Results

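The importin alpha family of the mouse testis was described gene by gene and transcript by transcript in 9 RNAseq libraries. The members were chosen by name: Kpna1, Kpna2, Kpna3, Kpna4, Kpna6 and Kpna7, and every transcript assigned to them. They are 6 of 32035 genes and 33 of 96626 transcripts in each library. Importin alpha proteins are adaptors of nuclear import. An armadillo repeat core binds the nuclear localization signal of a cargo, and an N-terminal importin beta binding (IBB) domain docks onto importin beta, which carries the complex through the nuclear pore. Inside the nucleus RanGTP releases the cargo, and the export factor Cse1l returns importin alpha to the cytoplasm. The paralogues prefer partly different cargoes, and their levels change as germ cells pass through spermatogenesis.

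The samples were whole testes of male mice on a C57Bl6/N background, 15 weeks old, with 3 samples in each of 3 groups. WT mice carried no Kpna6 mutation. In Kpna6 ΔIBB/ΔIBB mice (importin α7 is the protein name of Kpna6) a neomycin cassette took the place of exon 2, and a shorter mRNA has been described that can be translated from a start codon in exon 3 into a protein without the IBB domain. These males are infertile. In Kpna6 -/- mice a gene trap sits in intron 1. As described for this line, a first exon used in testis lies downstream of the trap, so that germ cells can still make the full-length protein, and these males are fertile. Both alleles are present in all cells of the animal. The labels call the samples of a group separate samples, so the P-values below measure the spread between these 3 testes per group.

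Libraries held 24973189 to 31629697 estimated counts (reads assigned by kallisto, not whole numbers and not normalized), of which 19923 to 32561 fell on the family. Levels are given in TPM, a transcript abundance that is corrected for transcript length and for depth. Changes between groups are log2 fold changes of the estimated counts from edgeR's quasi-likelihood test after TMM scaling, with Benjamini-Hochberg adjustment over all features tested and a threshold of 0.05. Whole testis RNA mixes cell types, and fewer cells of a type cannot be told apart from less RNA per cell. Spermatid and Sertoli cell marker genes moved with the ΔIBB genotype. Against WT, 8 of 8 round spermatid and 10 of 10 elongating spermatid markers were lower, and 10 of 10 Sertoli cell markers were higher, as were 3 of 8 each of the spermatogonium, peritubular and endothelial, and macrophage markers. Their summed levels were 1009 to 1194 TPM against 1313 to 1475 TPM for round spermatids, 58685 to 66961 TPM against 70502 to 80721 TPM for elongating spermatids, and 1313 to 1579 TPM against 831 to 900 TPM for Sertoli cells. For the other 3 lists they were 154 to 175 TPM against 117 to 133 TPM, 98.0 to 107 TPM against 65.2 to 69.6 TPM, and 80.8 to 95.0 TPM against 53.7 to 75.8 TPM, with 1 spermatogonium marker lower. Of all 18797 genes tested 36.6% were called in this comparison in either direction, 3327 of them higher and 3547 lower. Among leptotene to zygotene markers 3 of 8 were higher and 2 lower. For pachytene spermatocytes 2 of 8 were lower, and for Leydig cells 2 of 8 were higher. Of these 18 spermatid markers 0 were called in Kpna6 -/- testes, and 2 of 10 Sertoli cell markers were. The summed level of 7 epididymal genes was 93.3 TPM in Kpna6 ΔIBB/ΔIBB replicate 3 and 3.79 to 8.20 TPM in the other 8 libraries, with Lcn5 at 0 in all 9. The part of these differences in the results below was not tested. Some calls lost without that library are named beside the result. Where lost calls are only counted, the fit without that library may be among them.

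In WT testes Kpna2 was the most abundant member. This gene, whose protein is importin α1, reached 320, 329 and 314 TPM. Kpna6 followed with 98.3, 163 and 176 TPM. Kpna4 (importin α3) reached 79.8, 77.2 and 80.0 TPM, and Kpna1 (importin α5) 30.3, 28.3 and 29.5 TPM. Kpna3 (importin α4) lay at 9.85, 11.3 and 11.5 TPM. Kpna7 (importin α8), best known from oocytes and early embryos, was lowest at 2.88, 2.41 and 2.92 TPM. No 2 neighbours in this order overlapped. As a ratio, the narrowest step was the one from the lowest Kpna6 value, 98.3 TPM in WT replicate 1, to the highest Kpna4 value of 80.0 TPM. Kpna2 thus stood 117 times above Kpna7, and the order was the same by medians, by the most abundant transcript alone and without any single WT sample. It was also the same in Kpna6 -/- testes, while in Kpna6 ΔIBB/ΔIBB testes Kpna6 fell to the fourth place, behind Kpna4 and Kpna1 and ahead of Kpna3.

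**Figure D1:**
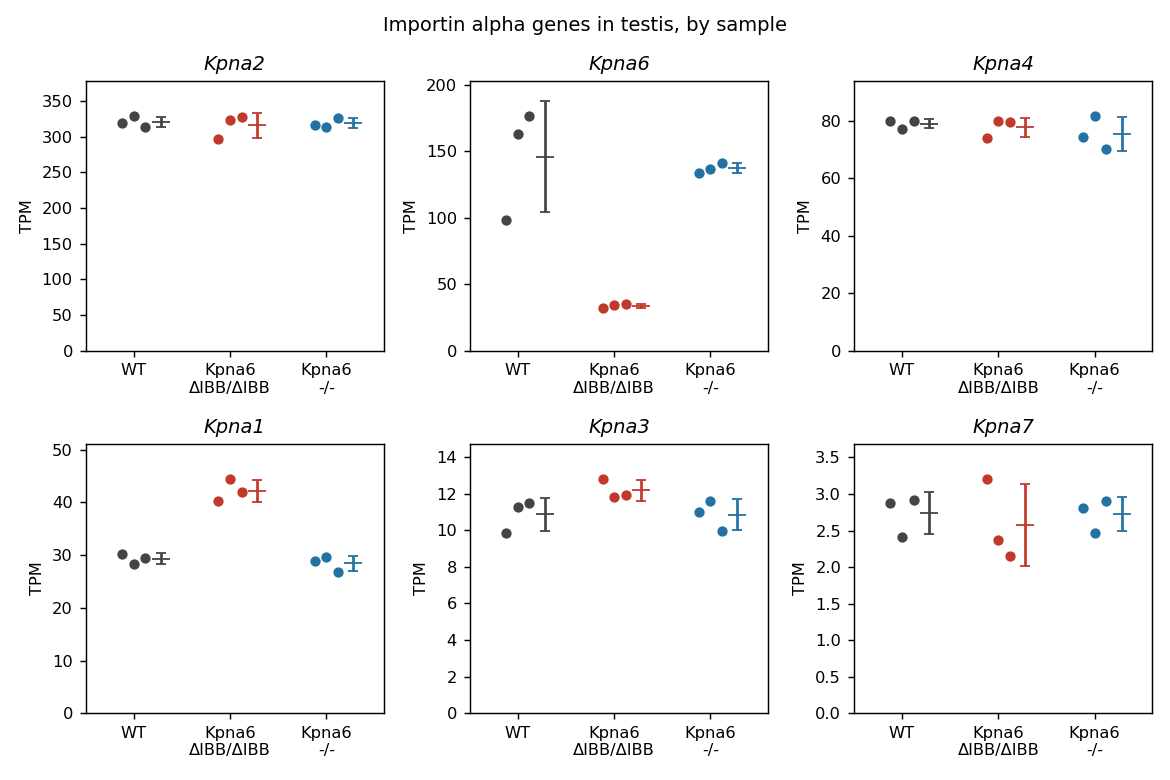
Level of each importin alpha gene in TPM (vertical axes, each from 0) in the 3 samples of each group (points), with the mean and SD beside them. Kpna6 is lower in all 3 ΔIBB/ΔIBB samples, Kpna1 is higher in them (40.2 to 44.5 TPM against 28.3 to 30.3 TPM in WT), and the other 4 genes lie at similar heights in the 3 groups.

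Kpna6 was the target of both alleles and is given first. It lies on chromosome 4 of GRCm38, minus strand, from 129643980 to 129672767. The coding part of its exon 2, chr4:129661306-129661434, is the piece that the ΔIBB allele replaces and holds 129 of the 1602 coding bases of Kpna6-201 (8.05%). Exon 3, chr4:129657768-129657860, holds the next start codons of the same reading frame once exon 2 is gone. The first of them is codon 59, so that 58 of 533 codons precede it. Both exons are shown because they are where the allele acts, with the annotated start codon and the first in-frame ATG of exon 3 in capitals.
Kpna6 exon 2: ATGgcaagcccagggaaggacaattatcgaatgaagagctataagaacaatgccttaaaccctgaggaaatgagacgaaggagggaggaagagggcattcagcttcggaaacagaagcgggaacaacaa
Kpna6 exon 3: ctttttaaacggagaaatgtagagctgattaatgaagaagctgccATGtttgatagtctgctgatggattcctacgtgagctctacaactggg
Kpna1 is the member closest to Kpna6 in coding sequence (73.92% identity; only Kpna3 and Kpna4 were closer to each other, with 75.35%, and the other 13 pairs lay between 56.55% and 62.59%). The coding part of its exon 2, chr16:36000187-36000315, plus strand, has the same length as that of Kpna6 and shares 90 of 129 bases with it (69.8%). The 39 bases that differ are in capitals, and sequences are from GENCODE M21 on GRCm38.
Kpna1 exon 2: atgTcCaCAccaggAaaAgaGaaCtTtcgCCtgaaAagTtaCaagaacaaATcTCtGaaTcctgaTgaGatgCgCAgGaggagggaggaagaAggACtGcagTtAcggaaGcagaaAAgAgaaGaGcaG

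At the gene level Kpna6 was 31.96, 34.2 and 34.8 TPM in Kpna6 ΔIBB/ΔIBB testes and 134, 137 and 141 TPM in Kpna6 -/- testes. All 3 ΔIBB/ΔIBB values lay below all WT and all Kpna6 -/- values, while the Kpna6 -/- values fell inside the WT range. Against WT the log2 fold change in ΔIBB/ΔIBB was -1.79 ± 0.15 (SE, n = 3 per group, adjusted P = 1.9e-05 by edgeR). This is 0.290 of the WT estimated counts, with a 95% interval from 0.230 to 0.366. These counts are not corrected for transcript length, and mean TPM was 33.7 in ΔIBB/ΔIBB and 146 in WT. Over the 17 alternatives the log2 fold change ran from -2.22 to -1.66. Against Kpna6 -/- it was -1.61 ± 0.04 (adjusted P = 1.2e-09), and from -2.16 to -1.51 over the alternatives. In Kpna6 -/- against WT it was -0.18 ± 0.14 (adjusted P = 0.59), with a 95% interval from -0.48 to 0.11. WT replicate 1 decided that comparison. Without it the fold change was -0.38 with an adjusted P of 0.00034, and the WT mean rose from 146 to 169 TPM. Over all genes WT replicate 1 did not stand apart, with correlations of 0.9891 and 0.9892 with the other WT samples, which correlated with each other at 0.9891.

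Of the 6 Kpna6 transcripts in the files, 2 carried most of the signal. Kpna6-201 starts 10.3 kb downstream of Kpna6-202, and the 2 forms begin with different first exons. They share 12 exons exactly and end in the same last exon, of which Kpna6-201 holds 696 and Kpna6-202 holds 4200 bases. The 80 bases of the first exon are all that Kpna6-201 has to itself among the transcripts listed, whereas Kpna6-202 has 3504 bases of its own, all at its 3′ end. Its first exon is shared with the minor transcript Kpna6-206. Whether the first exon of Kpna6-201 is the testis exon described for the Kpna6 -/- line was not tested.

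Kpna6-201, the main form in WT, reached 75.4, 132 and 148 TPM in WT, 11.7, 14.9 and 13.03 TPM in ΔIBB/ΔIBB, and 119, 122 and 126 TPM in Kpna6 -/- testes. The ΔIBB/ΔIBB values lay far below both other groups, which overlapped. The log2 fold change was -3.27 ± 0.26 against WT (adjusted P = 0.0025) and -3.33 ± 0.09 against Kpna6 -/- (adjusted P = 7.1e-05). The value of Kpna6 -/- against WT was 0.06 ± 0.22 (adjusted P = 0.98).

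Kpna6-202 moved far less. It reached 16.9, 23.4 and 22.3 TPM in WT, 15.2, 15.3 and 14.5 TPM in ΔIBB/ΔIBB, and 11.9, 11.3 and 11.98 TPM in Kpna6 -/- testes. The 3 groups did not overlap, and here the Kpna6 -/- group was the lowest. The paper's RT-PCR from exon 1 found no transcript in Kpna6 -/- testis. All 3504 bases held by Kpna6-202 alone lie at its 3′ end, so its level does not show which first exon was used. Against WT the log2 fold change was -0.58 ± 0.11 in ΔIBB/ΔIBB (adjusted P = 0.022) and -0.82 ± 0.12 in Kpna6 -/- (adjusted P = 0.13). The latter passed the threshold with DESeq2 (adjusted P = 1.6e-08), with all 9 samples in 1 fit (adjusted P = 0.032) and without WT replicate 1 (adjusted P = 0.022). The former was lost on TPM values and when WT replicate 2, WT replicate 3 or any ΔIBB/ΔIBB sample was left out, with adjusted P-values from 0.063 to 0.083. Between the lines, Kpna6-202 was higher in ΔIBB/ΔIBB by 0.23 ± 0.04 (adjusted P = 0.024), a call lost with all 9 samples in 1 fit (adjusted P = 0.25) and in 5 of the 6 fits that left a sample out.

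**Figure D2:**
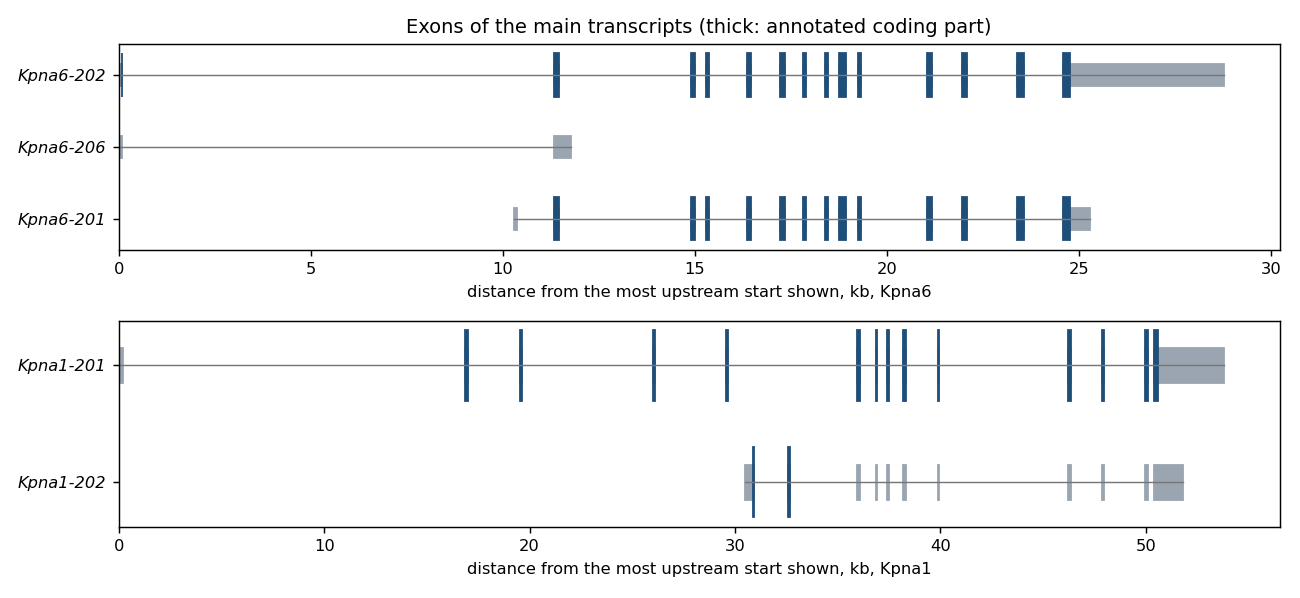
Exons of the main Kpna6 (top) and Kpna1 (bottom) transcripts against the distance in kb from the most upstream start drawn, with thin lines for introns, grey boxes for exons and tall blue boxes for annotated coding parts. Kpna6-201 starts 10.3 kb downstream of Kpna6-202 and ends earlier, and Kpna1-202 starts 30.5 kb downstream of Kpna1-201.

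The makeup of Kpna6 mRNA differed between the groups. Kpna6-201 made up 76.7, 81.3 and 84.1% of the gene's TPM in WT, 36.6, 43.6 and 37.4% in ΔIBB/ΔIBB, and 89.0, 89.2 and 89.6% in Kpna6 -/- testes. Kpna6-202 made up 17.2, 14.4 and 12.7%, then 47.6, 44.7 and 41.7%, then 8.89, 8.28 and 8.50%. No share overlapped between groups. For each pair of groups the two-sided exact permutation test gave P = 0.1, the smallest value that 3 against 3 samples allow (0.22 after adjustment over 60 tests of shares). Across all transcripts, edgeR's test of isoform use compares the change of a transcript with that of its gene. It placed Kpna6-201 at -1.04 and Kpna6-202 at 0.83 relative to the change of the gene in ΔIBB/ΔIBB against WT (adjusted P = 4.5e-05 and 0.00053). Isoform use values, here and below, are on the natural log scale, unlike the log2 fold changes. Between ΔIBB/ΔIBB and Kpna6 -/- the values were -1.20 and 1.27 (adjusted P = 1.3e-09 and 1.5e-09). In Kpna6 -/- against WT, Kpna6-202 lay at -0.44 relative to the gene's change (adjusted P = 0.32), and this passed the threshold without WT replicate 1 (adjusted P = 0.0004). By estimated counts in place of TPM, Kpna6-201 made up 65.6% in WT, 23.4% in ΔIBB/ΔIBB and 78.4% in Kpna6 -/- testes. Kpna6-202, the longer form, made up 33.9%, 75.4% and 21.3% by estimated counts, against means of 14.7%, 44.7% and 8.56% by TPM, with the groups in the same order.

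These shares rest on what kallisto could tell apart. Of the Kpna6 transcripts listed, 0 contain exon 3 without exon 2, so the shortened ΔIBB mRNA has no target of its own and kallisto could assign its reads only to the other forms. The change of the 5′ exon and that of the 3′ end cannot be told apart in these values. The other 4 Kpna6 transcripts had means of at most 2.52 TPM in any group, and neither Kpna6-204 nor Kpna6-205, which retain introns, was called in any comparison in which it was tested.

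**Figure D3:**
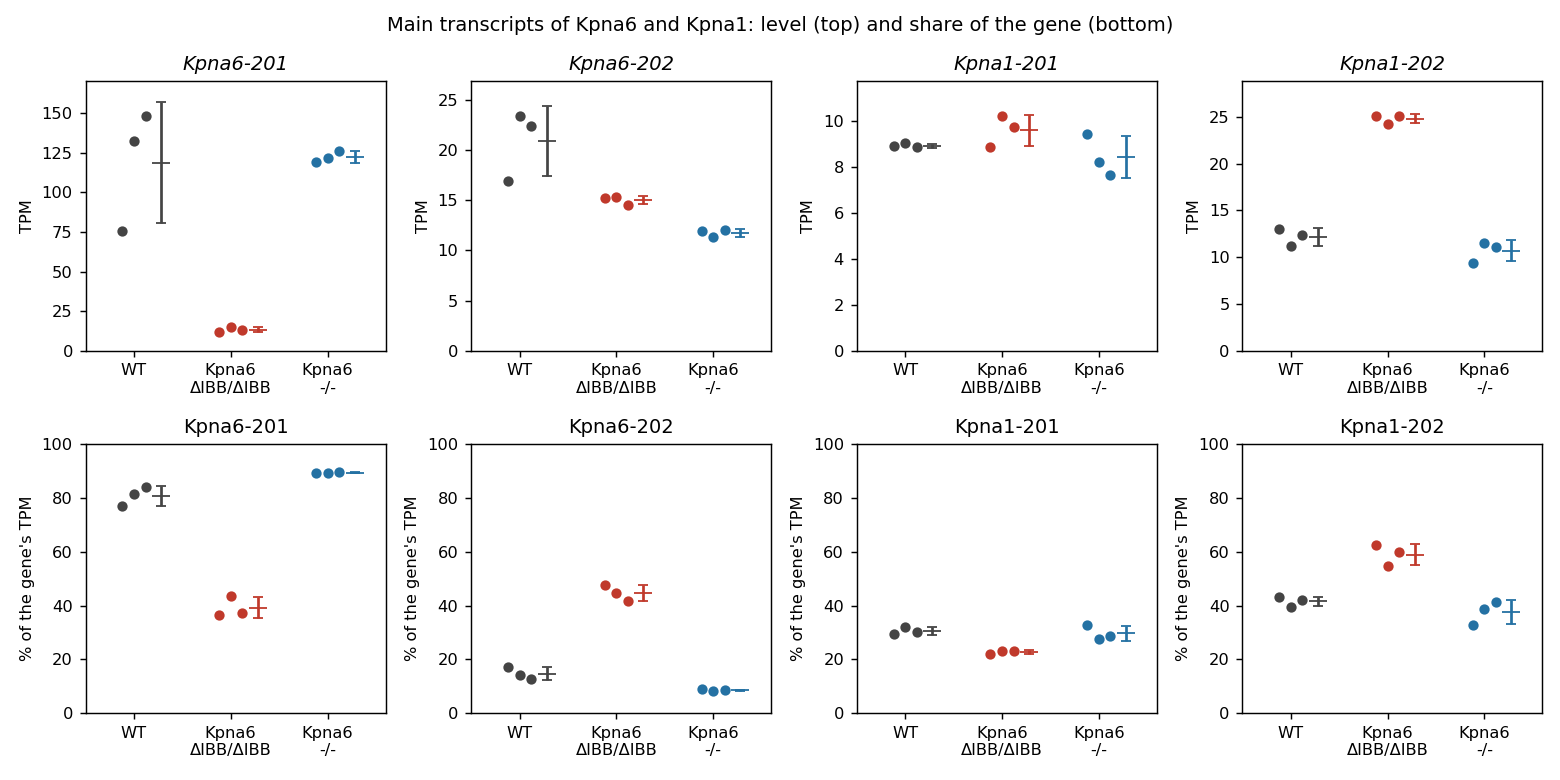
Level in TPM (top, axes from 0) and share of the gene's TPM in percent (bottom) of the 2 main transcripts of Kpna6 and of Kpna1 in each sample (points), with the mean and SD of the 3 samples beside them. In ΔIBB/ΔIBB testes Kpna6-201 fell to 11.7 to 14.9 TPM and Kpna6-202 to 14.5 to 15.3 TPM, and Kpna1-202 lay at 24.3 to 25.1 TPM beside 8.90 to 10.2 TPM of Kpna1-201.

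Among the 5 paralogues, Kpna1 was the one whose level rose in ΔIBB/ΔIBB testes, at 40.2, 44.5 and 41.9 TPM. The WT values were 30.3, 28.3 and 29.5 TPM and the Kpna6 -/- values 28.8, 29.7 and 26.9 TPM, so that the ΔIBB/ΔIBB samples lay above all 6 others. The log2 fold change was 0.42 ± 0.04 against WT (adjusted P = 5.7e-05), or 1.34-fold with a 95% interval from 1.25 to 1.44. Against Kpna6 -/- it was 0.52 ± 0.04 (adjusted P = 5.5e-06). For Kpna6 -/- against WT it was -0.10 ± 0.05 (adjusted P = 0.32).

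The rise of Kpna1 was seen in a transcript that is not annotated as coding for the importin. Kpna1-202 is annotated as a target of nonsense-mediated decay, the pathway that removes mRNAs with an early stop codon. Its first exon, chr16:36013797-36014225, lies between exons 5 and 6 of Kpna1-201, and its annotated reading frame has 135 bases, so that it lacks the exon 2 shown above. It reached 13.04, 11.2 and 12.4 TPM in WT, 25.1, 24.3 and 25.1 TPM in ΔIBB/ΔIBB, and 9.43, 11.5 and 11.1 TPM in Kpna6 -/- testes. The log2 fold change of Kpna1-202 was 0.92 ± 0.07 against WT (adjusted P = 0.0024) and 1.09 ± 0.08 against Kpna6 -/- (adjusted P = 0.0014). It was called in each of the 13 alternative fits of both comparisons.

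Kpna1-201, which encodes the full-length protein, was 8.91, 9.05 and 8.88 TPM in WT, 8.90, 10.2 and 9.74 TPM in ΔIBB/ΔIBB, and 9.47, 8.22 and 7.69 TPM in Kpna6 -/- testes. These groups overlapped. The log2 fold change against WT was -0.0019 ± 0.07 (adjusted P = 0.99), with a 95% interval from -0.16 to 0.16, so that a rise as large as that of the gene lay outside it. The share of Kpna1-202 in the gene's TPM went from 41.5 ± 1.84% (SD, n = 3) in WT to 58.9 ± 3.98% in ΔIBB/ΔIBB, and was 37.6 ± 4.46% in Kpna6 -/-. Isoform use (natural log scale) was called for both Kpna1-201 (-0.31, adjusted P = 0.032) and Kpna1-202 (0.33, adjusted P = 0.01) against WT. These calls were less firm than those of Kpna6. That of Kpna1-202 was lost without WT replicate 2 (adjusted P = 0.11), without ΔIBB/ΔIBB replicate 1 (0.098) and with no filter (0.0501), and that of Kpna1-201 in 8 of 11 alternatives, with adjusted P-values up to 0.20, among them the fit without ΔIBB/ΔIBB replicate 3 (0.076). Between the lines the isoform use calls were lost in 6 of 11 alternatives for Kpna1-201 (0.079 without ΔIBB/ΔIBB replicate 3) and in 2 of 11 for Kpna1-202. With counts summed over transcripts annotated as protein coding alone, an alternative chosen after these values were seen, the gene-level log2 fold change of Kpna1 was -0.035 against WT (adjusted P = 0.71) and 0.028 against Kpna6 -/- (adjusted P = 0.83).

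The other 4 paralogues changed little. Kpna2 was 296, 324 and 328 TPM in ΔIBB/ΔIBB and 316, 314 and 327 TPM in Kpna6 -/- testes, overlapping with WT. Its log2 fold change was -0.10 ± 0.04 in ΔIBB/ΔIBB against WT (adjusted P = 0.097) and -0.13 ± 0.04 against Kpna6 -/- (adjusted P = 0.031). The latter was lost by scaling to library size alone (-0.028, adjusted P = 0.58), on TPM values (-0.014, adjusted P = 0.84), with length-scaled counts (adjusted P = 0.053) and without ΔIBB/ΔIBB replicate 1 or any Kpna6 -/- sample. Of the 31-base words in Kpna2 transcripts, 66.0% also occur in other genes, chiefly processed copies at up to 0.979 TPM, and 296 bases are 96.6% identical to a stretch of Med20 (9.48 to 13.5 TPM), so its assignment is less certain than that of the other members (at most 3.67%).

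Kpna4 was 73.9, 79.8 and 79.5 TPM in ΔIBB/ΔIBB and 74.3, 81.6 and 70.2 TPM in Kpna6 -/- testes, and all 3 groups overlapped. Against WT its log2 fold change was -0.11 ± 0.04 in ΔIBB/ΔIBB (adjusted P = 0.0499), a call lost in 13 of 17 alternatives, among them every fit with a sample left out, and -0.10 ± 0.04 in Kpna6 -/- (adjusted P = 0.25). Kpna4-203 held 77.5 ± 0.41% (SD, n = 3) of the gene's TPM in WT and 78.1 ± 0.71% in ΔIBB/ΔIBB testes.

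Kpna3, with a single transcript in the files, was 12.8, 11.8 and 11.9 TPM in ΔIBB/ΔIBB and 11.01, 11.6 and 9.94 TPM in Kpna6 -/- testes. Although the TPM values of ΔIBB/ΔIBB lay above those of WT, the log2 fold change of the counts was 0.04 ± 0.07 (adjusted P = 0.68), with a 95% interval from -0.11 to 0.19. Kpna7 was 3.21, 2.37 and 2.15 TPM in ΔIBB/ΔIBB and 2.81, 2.46 and 2.91 TPM in Kpna6 -/- testes, from 91.0 to 113 estimated counts per library over all 9. Its log2 fold change was -0.09 ± 0.16 in ΔIBB/ΔIBB (adjusted P = 0.71) and 0.06 ± 0.15 in Kpna6 -/- (adjusted P = 0.89), with 95% intervals from -0.44 to 0.27 and from -0.27 to 0.40. A pseudogene on the opposite strand, Gm43563, shares 116 bases with Kpna7 at 96.6% identity and stood higher, at a mean of 13.4 TPM in WT, so that the level of Kpna7 is uncertain.

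Counted over the family, 3 of 6 genes were called in ΔIBB/ΔIBB against WT, Kpna6 and Kpna4 lower and Kpna1 higher, where 36.6% of all 18797 genes tested were called. The median log2 fold change was -0.09 over the members and 0.0090 over all genes. Of the 6 genes 0 were called in Kpna6 -/- against WT by edgeR, with 2 at an unadjusted P below 0.05 and 0 by DESeq2, where 1.6% of 18681 genes were called. In ΔIBB/ΔIBB against Kpna6 -/- 3 of 6 were called, Kpna6 and Kpna2 lower and Kpna1 higher, where 30.3% of 18752 genes were called. Only Kpna6 and Kpna1 kept their calls in both ΔIBB/ΔIBB comparisons under all the alternatives planned. Scaling to library size alone moved the median of all genes from 0.0090 to 0.11 in ΔIBB/ΔIBB against WT, so that changes under that size depend on the scaling.

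**Figure D4:**
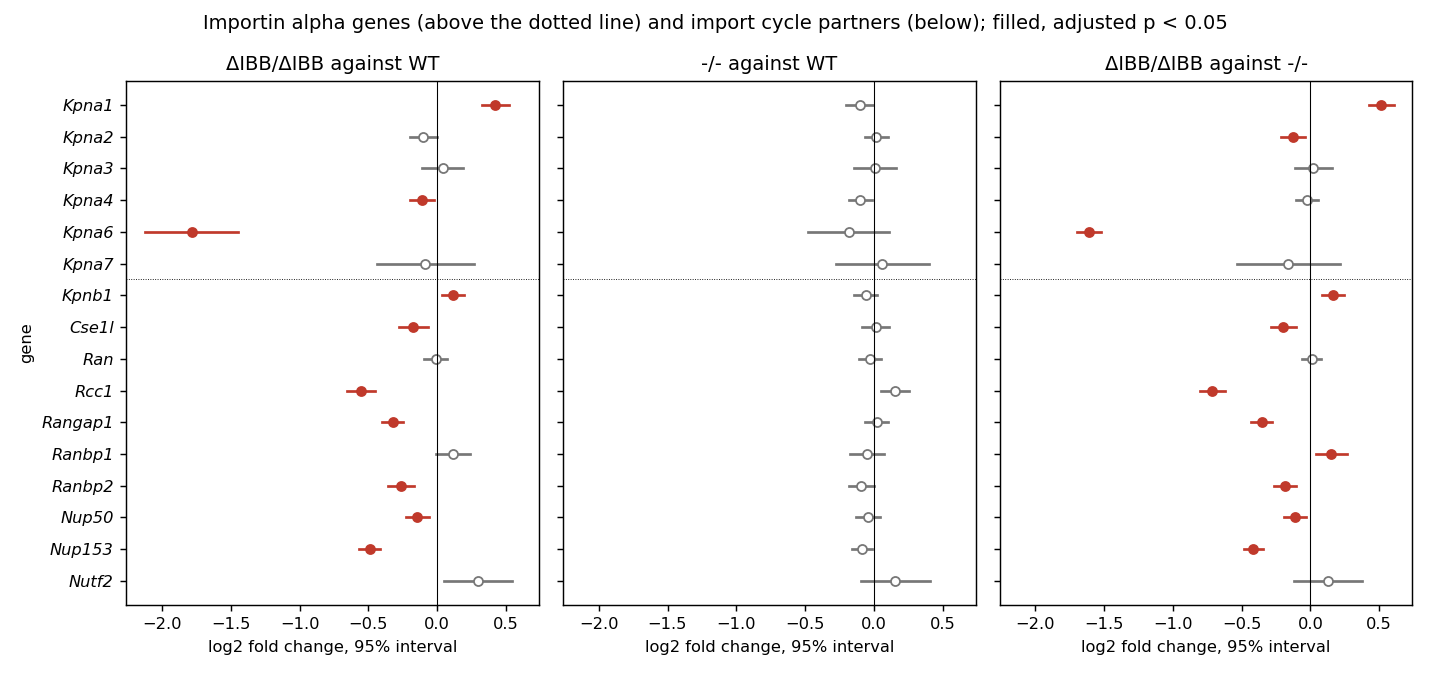
Log2 fold change (horizontal axis) with its 95% interval for the 6 importin alpha genes and 10 import cycle partners in the 3 comparisons (edgeR, n = 3 per group), filled red where the adjusted P-value is below 0.05. Kpna6 lies at -1.79 and Kpna1 at 0.42 in ΔIBB/ΔIBB against WT, the other 4 members lie within 0.11 of 0, and in Kpna6 -/- against WT all points are open.

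Of the 33 transcripts, 20 passed the filter in ΔIBB/ΔIBB against WT and 3 were called: Kpna6-201, Kpna6-202 and Kpna1-202, where 9.73% of all transcripts tested were called. Of 19 tested in Kpna6 -/- against WT, 0 were called by edgeR, with 3 at an unadjusted P below 0.05 and 1 by DESeq2, where 0.0561% of all transcripts were called. Between the mutant lines 3 of 19 were called, the same 3 transcripts, where 7.35% were called. Isoform use was called for 4 of 19 transcripts in ΔIBB/ΔIBB against WT (0.694% of all tested), for 0 of 18 in Kpna6 -/- against WT (2 at an unadjusted P below 0.05, 0.223% of all tested) and for 4 of 18 between the lines (0.649% of all tested). Both sets of 4 were Kpna1-201, Kpna1-202, Kpna6-201 and Kpna6-202. Members of 1 gene share reads, so these calls are not independent. Kpna2-203, a short coding form, was 30.5, 31.3 and 28.2 TPM in WT and 15.6, 22.4 and 26.4 TPM in ΔIBB/ΔIBB, and was not called (adjusted P = 0.12). The 12 transcripts with a mean below 1 TPM in every group had group means of at most 0.707 TPM.

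Summed levels set the decrease of Kpna6 beside the levels of its paralogues. The 6 genes together gave 541, 611 and 614 TPM in WT, 458, 497 and 498 TPM in ΔIBB/ΔIBB, and 567, 576 and 578 TPM in Kpna6 -/- testes. Without Kpna6 the sums were 443, 448 and 438 TPM in WT, 426, 462 and 464 TPM in ΔIBB/ΔIBB, and 433, 439 and 437 TPM in Kpna6 -/- testes, and here the ΔIBB/ΔIBB samples spanned the WT range. Mean Kpna6 in ΔIBB/ΔIBB decreased by 112 TPM against WT. Mean Kpna1 was 12.9 TPM higher, of which Kpna1-202 made up 12.6 TPM. Kpna6 held 24.5% of the summed level in WT, 6.95% in ΔIBB/ΔIBB and 23.9% in Kpna6 -/- testes, and Kpna2 held 54.7%, 65.2% and 55.6%. These sums weigh mRNA levels only and were not tested. On log2(TPM + 1) the median log2 fold change of all genes in ΔIBB/ΔIBB against WT was 0.096, beside 0.0090 after TMM scaling. TPM differences of that size thus depend on the scaling.

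**Figure D5:**
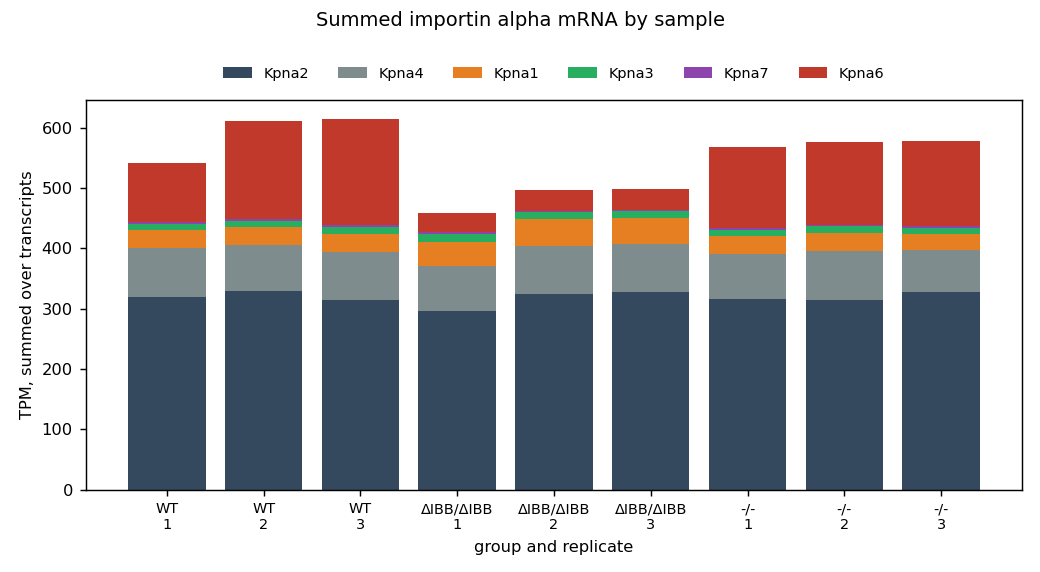
TPM of the 6 importin alpha genes stacked for each of the 9 samples, with the vertical axis from 0. The Kpna6 segment (top, red) shrinks to 31.96 to 34.8 TPM in the 3 ΔIBB/ΔIBB samples, and the total there is 458 to 498 TPM against 541 to 614 TPM in WT.

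The 10 partners of importin alpha in the import cycle were listed from textbook knowledge. In ΔIBB/ΔIBB against WT 7 of 10 were called, 1 higher and 6 lower, with a median log2 fold change of -0.16, beside 0.0090 and 36.6% over all genes. By estimated counts the largest decrease was that of Rcc1, the chromatin-bound exchange factor that makes RanGTP, at -0.55 ± 0.05 (adjusted P = 1.8e-05). Next came Nup153, a nucleoporin of the nuclear basket, at -0.49 ± 0.03 (adjusted P = 1.1e-05). Over the 17 alternatives Rcc1 ran from -0.63 to -0.27 and Nup153 from -0.51 to -0.36. Which of them decreased more thus depended on the processing. Against Kpna6 -/- Rcc1 ran from -0.79 to -0.38. Rcc1 was 178, 196 and 192 TPM in WT, 157, 156 and 153 TPM in ΔIBB/ΔIBB, and 204, 200 and 204 TPM in Kpna6 -/- testes, and Nup153 was 99.7, 96.3 and 97.8 TPM, then 77.9, 75.4 and 74.9 TPM, then 88.6, 93.7 and 90.9 TPM. For both genes the ΔIBB/ΔIBB values lay below all others.

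Rangap1, the GTPase activating protein of Ran, decreased by 0.32 on the log2 scale (SE 0.04, adjusted P = 6.7e-05). Rcc1, Nup153 and Rangap1 were lower and past the threshold under all 17 alternatives against WT and against Kpna6 -/-. The decreases of Cse1l (-0.17), Ranbp2 (-0.26), a nucleoporin of the cytoplasmic filaments, and Nup50 (-0.14), which helps release cargo from importin alpha, were smaller. On TPM values none of these 3 was called, and Cse1l was 0.015 higher in ΔIBB/ΔIBB. Over all 17 alternatives against WT, the call of Cse1l was lost in 4 and its direction turned in 2 others. That of Nup50 was lost in 4 and that of Ranbp2 in 2. Kpnb1, the importin beta that the IBB domain binds, was 67.6, 71.7 and 68.8 TPM in WT, 81.3, 83.0 and 76.5 TPM in ΔIBB/ΔIBB, and 67.0, 65.7 and 64.1 TPM in Kpna6 -/- testes. Its ΔIBB/ΔIBB values lay above all others, by 0.12 ± 0.04 against WT (adjusted P = 0.03, from 0.00065 to 0.14 over the alternatives, 6 of which lost the call) and by 0.17 ± 0.04 against Kpna6 -/- (adjusted P = 0.0051, called under all 17 alternatives). Ran itself, at means of 255, 276 and 249 TPM in WT, ΔIBB/ΔIBB and Kpna6 -/-, was not called in any comparison (adjusted P = 0.77 to 0.88). It was 0.11 higher in ΔIBB/ΔIBB than in Kpna6 -/- by library size alone (adjusted P = 0.014) and 0.15 higher on TPM values (adjusted P = 0.02).

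Of the 10 partners 0 were called in Kpna6 -/- against WT by edgeR and 0 by DESeq2, with 2 at an unadjusted P below 0.05, beside 1.6% of all genes. Between the mutant lines 8 of 10 were called, 2 higher (Kpnb1 and Ranbp1, which helps RanGTP off its carriers) and 6 lower in ΔIBB/ΔIBB, beside 30.3% of all genes. The call of Nup50 was lost in 9 of 17 alternatives (adjusted P = 0.082 without ΔIBB/ΔIBB replicate 3) and its direction turned in 2 others, and that of Ranbp1 was lost in 9 of 17. The ΔIBB/ΔIBB comparisons share their ΔIBB/ΔIBB samples, and these counts move beside the marker changes given above.

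For each member, the 3 genes with the most similar pattern over the 9 samples, whatever their level, were sought by Pearson's r of log2(TPM + 1). They were taken from 11722 or 11723 other genes with a mean of at least 5 TPM. For Kpna6 they were 1700017N19Rik (r = 0.9934), Ccnyl1 (0.9918) and Usp25 (0.9909). Like Kpna6, these 3 were lower in ΔIBB/ΔIBB than in both other groups, at means of 94.2, 221 and 45.4 TPM against 130, 284 and 56.6 TPM in WT, and their lowest WT value was that of replicate 1. For Kpna1 they were Uxs1 (0.9917), Ubr2 (0.9867) and Zdhhc12 (0.9866), all with their highest mean in ΔIBB/ΔIBB. The nearest genes to Kpna2 (Zcchc17, Zzz3 and Gtf2i), Kpna3 (Cypt2, Uck1 and Zfp78), Kpna4 (Mcf2l, Ecpas and B230307C23Rik) and Kpna7 (Klhl25, Fam208a and Pou2f1) had r from 0.8723 to 0.9567. The 9 samples fall into 3 groups, and each r is a description over these groups. Because the genes were picked by r over the same samples, a group order like that of the member follows from the choice.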

How the data were processed

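RNAseq of poly(A) RNA covered 9 whole testes, 3 for each genotype. The authors deposited 1 kallisto table per sample, with an estimated count and a TPM value for each transcript of mm10 (per the labels' processing notes, kallisto 0.45). The estimated counts are not normalized between samples. The same tables list transcript lengths. Of 96626 transcripts, 95301 were matched by identifier to GENCODE M21, and both values were summed per gene. Counts were rounded and tested with edgeR 4.0.16 (filterByExpr, TMM, glmQLFit and glmQLFTest, and diffSpliceDGE for isoform use) on the 6 samples of the groups compared, with Benjamini-Hochberg adjustment over all features. DESeq2 1.42.0 and limma 3.58.1 served as alternatives, and the procedure was tested on simulated data. kallisto splits reads shared by transcripts without a stated error, which the tests do not carry forward. The authors used sleuth, which was not run here. Whether the counting used strand is not given in the sources used here. The members, partners and marker lists were chosen with earlier results of these data known. The genes named are the 6 members with their transcripts, 10 import cycle partners and, for each member, the 3 genes most similar to it in pattern.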

Additional observations from a re-analysis of the deposited data

Results flagged for a closer look

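The 2 mutant lines were compared with each other directly, which tests whether their effects against the shared WT samples differ. By edgeR with Benjamini-Hochberg adjustment over all features, the difference passed the threshold (ΔIBB/ΔIBB relative to Kpna6 -/-, log2 scale) for Kpna6 (-1.61), Kpna1 (0.52) and Kpna2 (-0.13) among the members, and for the transcripts Kpna6-201 (-3.33), Kpna6-202 (0.23) and Kpna1-202 (1.09). Isoform use differed for Kpna6-201 (-1.20), Kpna6-202 (1.27), Kpna1-201 (-0.33) and Kpna1-202 (0.38), with these isoform use values alone on the natural log scale. Among the import cycle partners it passed for Rcc1 (-0.71), Nup153 (-0.41), Rangap1 (-0.36), Cse1l (-0.20), Ranbp2 (-0.18) and Nup50 (-0.11), all lower in ΔIBB/ΔIBB, and for Kpnb1 (0.17) and Ranbp1 (0.15), both higher. Several of these calls were not firm. Of the 17 alternatives, 8 lost the call of Kpna2, 9 lost that of Ranbp1, 9 lost that of Nup50 and 2 others turned its direction, and 3 each lost those of Cse1l and Ranbp2. Of the 2 main Kpna6 transcripts, Kpna6-201 was lower in ΔIBB/ΔIBB and Kpna6-202 was lower in Kpna6 -/- testes. Round and elongating spermatid markers were lower and Sertoli cell markers higher in ΔIBB/ΔIBB than in Kpna6 -/- testes (8 of 8, 10 of 10 and 10 of 10 called), and their part in these differences was not tested.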

How the results depend on the processing

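Of 1301 recomputed values, 1122 were classed as unchanged. For a test this means the same direction and the same side of the threshold. For a count or share it means a value near the main one. A fall from 3 to 2 importin alpha genes called in ΔIBB/ΔIBB against WT was thus classed as unchanged. A call was lost in 94 and gained in 14, the direction turned in 44, and 27 counts or shares moved. The calls of Kpna6 and Kpna1 in both ΔIBB/ΔIBB comparisons held under each alternative except, for Kpna1, counts of protein-coding transcripts alone. Most values that turned were close to 0 and not called in either form, and the cause was not tested.

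By library size alone the log2 fold change in ΔIBB/ΔIBB against WT turned to 0.013 for Kpna7, 0.086 for Ran and 0.080 for Kpna1-201, and that against Kpna6 -/- to 0.077 for Kpna4. On log2(TPM + 1) the values against WT became 0.015 for Cse1l, 0.11 for Ran and 0.093 for Kpna1-201, and against Kpna6 -/- 0.046 for Kpna4 and 0.032 for Nup50. In Kpna6 -/- against WT they were -0.0094 for Kpna2, -0.00095 for Kpna3 and -0.0023 for Kpna7. With a pseudocount of 0.1 the values were 0.016 for Cse1l and 0.12 for Ran, then 0.046 for Kpna4 and 0.033 for Nup50, and then -0.0094 for Kpna2, -0.0010 for Kpna3 and -0.0025 for Kpna7. Against WT in ΔIBB/ΔIBB, length-scaled counts gave 0.0018 for Ran, DESeq2 gave 0.0018 for Kpna1-201, and protein-coding transcripts alone gave -0.035 for Kpna1. In Kpna6 -/- against WT, protein-coding transcripts alone gave -0.0041 for Cse1l, and counts summed over near-identical sequences gave -0.0018 for Kpna7.

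Of the counts, isoform use in ΔIBB/ΔIBB against WT fell from 4 to 2 transcripts with no filter. The number of transcripts called in Kpna6 -/- against WT rose from 0 to 1 with DESeq2 and to 1 with all 9 samples in 1 fit.

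With 1 sample left out, the log2 fold change in ΔIBB/ΔIBB against WT ranged from -0.023 to 0.068 for Kpna3, from -0.24 to 0.0079 for Kpna7, from -0.030 to 0.0095 for Ran and from -0.047 to 0.051 for Kpna1-201, and 2 to 3 transcripts changed in isoform use. Against Kpna6 -/- it ranged from -0.034 to 0.069 for Kpna3, from -0.038 to 0.0057 for Kpna4 and from -0.0044 to 0.028 for Ran, and 2 to 4 transcripts changed in isoform use. In Kpna6 -/- against WT it ranged from -0.0065 to 0.047 for Kpna2, from -0.050 to 0.062 for Kpna3, from -0.38 to -0.057 for Kpna6, from -0.024 to 0.19 for Kpna7, from -0.011 to 0.043 for Cse1l and from -0.18 to 0.23 for Kpna6-201. Isoform use there, on the natural log scale, ranged from -0.032 to 0.055 for Kpna1-201 and from -0.087 to 0.011 for Kpna1-202. The number of genes called there was 0 to 1, of transcripts called 0 to 1 and of transcripts with changed isoform use 0 to 1. Each 1 arose without WT replicate 1.

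The labels give the groups the same replicate numbers without saying that a number pairs samples. Deviations from the group means of same-numbered samples correlated at -0.0558 to 0.078, so the numbers were not treated as pairs. With the replicate number as a block, Kpna4 (ΔIBB/ΔIBB against WT, adjusted P = 0.059) and Kpna6-202 (between the lines, adjusted P = 0.08) were no longer called. Isoform use between the lines then changed in 2 transcripts in place of 4, since Kpna1-201 and Kpna1-202 were no longer called (adjusted P = 0.18 and 0.079). No other call among the members and partners changed.

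With 3 samples per group, precision is limited most for Kpna7, the member with the fewest counts, whose 95% interval between the lines ran from -0.53 to 0.21 on the log2 scale.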

Other observations

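Some transcripts of the members were neither called nor described above. Kpna1-205, a short form annotated as coding, had means of 4.62, 3.95 and 5.93 TPM in WT, ΔIBB/ΔIBB and Kpna6 -/- testes, and Kpna1-207, annotated as a target of nonsense-mediated decay like Kpna1-202, had 2.11, 1.89 and 2.31 TPM. Kpna2-204, a short coding form, had 19.4, 16.1 and 17.2 TPM. Kpna4-202 was 13.1, 20.999 and 8.86 TPM in Kpna6 -/- testes, on a length of 459 bases. Kpna4-201, which ends 5072 bases beyond the main form Kpna4-203, had 4.35, 4.84 and 3.82 TPM. Kpna7-201 had 1.16, 1.51 and 1.44 TPM.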
